A study of Mus musculus with 6 samples.

Results

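Ubiquitin ligases and 2 ligase adaptors were followed through mouse T helper 9 (Th9) cells that carried or lacked Cblb, which encodes the ligase CBL-B. The group was a fixed list of 10 genes, Cblb, Cbl, Itch, Nedd4, Nedd4l, Rnf128, Peli1, Traf6, Ndfip1 and Ndfip2, out of 17369 gene columns in the deposited table, and all 10 were found there by symbol. Th9 cells, named for the cytokine IL-9, were made from naive CD4 T cells of mouse spleen by 48 h of culture with IL-4 at 20 ng/ml, human TGF-beta at 3 ng/ml and 20 µg/ml of an antibody to interferon-gamma, and then passed over CD4 beads. Both groups received the same culture: 3 libraries came from wild-type mice and 3 from Cblb-/- mice, whose allele and strain background the labels do not describe. Single-cell libraries (10x Genomics 3′ chemistry) were compared across libraries, named A to C for wild type and D to F for knockout, and across the deposited clusters 0 to 5. The design text gives 3 mice of each genotype but nothing says whether the cultures were handled separately, so the p-values reflect only how far these samples spread, which may be technical in part.

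Ubiquitin ligases transfer ubiquitin from a conjugating enzyme to a protein, which marks it for degradation, moves it within the cell or changes its partners. In T cells several of them restrain activation, CBL-B and CBL close to the T cell receptor and CD28. Itch and NEDD4 belong to a family of HECT ligases that the membrane adaptors NDFIP1 and NDFIP2 recruit and activate. RNF128 (GRAIL) is known from T cell anergy, Pellino 1 (PELI1) from receptor signalling to NF-kB, and TRAF6 from signalling by the IL-1, Toll-like and TNF receptor families. Messenger RNA levels, measured here, do not report the activity of these enzymes.

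The promoters of Cblb and Nedd4 are shown first because these members differed most between genotypes. The sequences are RefSeq's, build GRCm38.p6, 250 bases before to 50 after each start. A start was matched for 7 of the 10 members. The windows are the Cblb start (chr16:52031299-52031598), the first Nedd4 start (chr9:72662081-72662380) and the second Nedd4 start (chr9:72693048-72693347), all on the plus strand and printed 5′ to 3′. Capitals mark matches on either strand to AP-1 (TGANTCA), STAT5 (TTCNNNGAA), STAT6 (TTC and GAA with 4 bases between them), the NFAT core (GGAAA) or the E-box (CACGTG).
Cblb: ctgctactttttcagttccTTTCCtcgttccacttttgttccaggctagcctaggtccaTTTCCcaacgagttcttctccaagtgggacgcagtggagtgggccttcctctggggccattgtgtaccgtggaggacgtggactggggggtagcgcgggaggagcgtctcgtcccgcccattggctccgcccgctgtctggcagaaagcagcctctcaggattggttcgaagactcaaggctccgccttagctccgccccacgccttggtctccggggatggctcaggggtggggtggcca
Nedd4 first start: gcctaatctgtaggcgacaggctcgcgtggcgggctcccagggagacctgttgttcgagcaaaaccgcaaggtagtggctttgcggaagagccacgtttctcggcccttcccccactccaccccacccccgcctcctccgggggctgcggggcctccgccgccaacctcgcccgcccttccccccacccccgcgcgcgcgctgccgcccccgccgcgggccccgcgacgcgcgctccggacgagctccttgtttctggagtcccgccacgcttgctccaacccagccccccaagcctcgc
Nedd4 second start: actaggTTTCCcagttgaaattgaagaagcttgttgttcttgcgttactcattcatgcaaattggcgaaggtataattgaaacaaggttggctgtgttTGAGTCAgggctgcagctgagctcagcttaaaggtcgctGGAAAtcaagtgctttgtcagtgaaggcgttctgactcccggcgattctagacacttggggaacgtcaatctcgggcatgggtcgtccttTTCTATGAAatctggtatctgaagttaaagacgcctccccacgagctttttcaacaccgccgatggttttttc
The Cblb window held 2 matches to the NFAT core and none to the other 4 motifs, and the first Nedd4 window held no match. The second Nedd4 window held 1 match to AP-1, 1 to STAT5 and 2 to the NFAT core. Of 32851 promoters of the same length, 7.81% held the AP-1 letters, 8.30% the STAT5, 6.95% the STAT6, 61.3% the NFAT core and 7.15% the E-box letters. A match is a description of the letters, and a missing match says only that these letters are not in this window. The first Nedd4 window was 73% G and C with 35 CG pairs, the Cblb window 61.3% with 17 and the second Nedd4 window 46.7% with 13, against medians of 52.7% and 7 over all promoters. The 3′ tags do not show which Nedd4 start was used.

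The members lie apart in the genome (GENCODE M21, mm10). Cblb (ENSMUSG00000022637) spans chr16:52031225-52208048 on the plus strand, and its longest coding transcript has 18 exons. Nedd4 (ENSMUSG00000032216) spans chr9:72662346-72749852 on the plus strand, and its longest coding transcript has 29 exons. Cbl (ENSMUSG00000034342) lies at chr9:44142976-44234049 on the minus strand, Itch (ENSMUSG00000027598) at chr2:155133509-155226855, Traf6 (ENSMUSG00000027164) at chr2:101678429-101701669, Peli1 (ENSMUSG00000020134) at chr11:21091291-21150323, Ndfip2 (ENSMUSG00000053253) at chr14:105258573-105309298 and Rnf128 (ENSMUSG00000031438) at chrX:139563316-139673145, the last 5 on the plus strand. Nedd4l (ENSMUSG00000024589, chr18:64887705-65217828) and Ndfip1 (ENSMUSG00000024425, chr18:38410396-38465303) share a chromosome, both on the plus strand. The only overlapping gene that also has a column is A330084C13Rik (chr18:64884475-64888491), antisense to Nedd4l at its 5′ end. No source used here states whether counting used strand, and an effect of this overlap on the Nedd4l values was not tested.

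The table held 27258 cells, 12755 wild type and 14503 knockout, with 3423 to 5666 cells per library, median raw depths of 35573 to 39628 unique molecular identifiers (UMIs) per cell and library totals of 149381789 to 229387950 UMIs. Levels are given in ppm, the share of a library's corrected counts per 1000000. They are not scaled by gene length and are compared here between samples, not between genes. The first principal component of all genes held 74.0% of the variance, with scores of -13.3 to -12.2 for the wild type, 16.6 for D, 6.34 for E and 15.6 for F. The summed level of 7 of 7 CD4 T cell markers was 1544 to 1581 ppm in the wild type and 1496 to 1563 ppm in the knockout. Single markers in this sum moved in both directions. Cd3e (means of 178 and 145 ppm), Cd4 (92.5 and 80.2) and Trac (224 and 190) were lower in every knockout library. Cd5 was higher in every knockout library (117 and 153 ppm), and Cd3d, Cd3g and Lck overlapped. Markers of other cells that moved with genotype were those of CD8 T cells (2 of 2 in the table, 5.68 to 7.20 against 10.2 to 11.1 ppm, mostly Cd8b1, with Cd8a at 0.082 and 0.201 ppm) and of B cells (4 of 4, 2.90 to 3.51 against 5.18 to 9.04 ppm, mostly Cd79b, with Ms4a1 at 0.009 and 0.033 ppm). Sums were 0.081 to 0.141 against 0.130 to 0.196 ppm for myeloid cells (4 of 5), 0.049 to 3.29 against 0.377 to 2.78 ppm for mast cells or basophils (5 of 5), and 0.134 to 0.229 against 0.122 to 0.203 ppm for NK cells (2 of 3). The part of these cells in the results below was not tested. The same barcode sequence occurred in more than 1 library for 76 barcodes.

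Cblb was lower and Nedd4 higher in the knockout libraries, and no other member passed the test over all cells. Of the 10 members, 8 reached the minimum mean level of 5 ppm for the test (limma on log2(ppm + 1), Benjamini-Hochberg adjusted p under 0.05 over all genes tested). Of these 1 was higher, 1 was lower and 6 were not called, where 24.4% of all 8475 genes tested were called (11.0% higher, 13.4% lower), so 2 of 8 is close to the background. The count of 2 includes Cblb, the gene that the knockout targets. Knockout and wild-type libraries did not overlap for 3 of the 8 tested members (Cblb, Nedd4 and Ndfip1), against 45.3% of all genes tested. They overlapped for the untested Nedd4l and Rnf128.

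Cblb stood at 32.6, 31.1 and 30.9 ppm in wild-type libraries A, B and C, against 18.4, 15.0 and 18 ppm in D, E and F of the knockout. Every knockout library lay below every wild-type library, E lowest. The means were 31.5 ± 0.91 and 17.1 ± 1.85 ppm (SD, n = 3 each), so the targeted gene was still counted at 54.4% of its wild-type level. The log2 difference was -0.85 (SE 0.08, 95% interval -1.02 to -0.67, limma adjusted p = 0.000816). The labels do not say which part of Cblb is deleted, and 3′ tags from outside that part would still be counted. Whether the remaining tags come from a working transcript was not tested.

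Nedd4 encodes the founding member of the HECT ligase family to which Itch also belongs. Its level was 9.57, 9.18 and 9.73 ppm in A, B and C and 15.5, 15.8 and 17.2 ppm in D, E and F. The 2 groups were well apart, and library E, which lay nearer to the wild type on the first principal component, was as high as D. Means of 9.49 ± 0.28 and 16.2 ± 0.90 ppm (SD, n = 3 each) gave a 1.70-fold difference, with a log2 difference of 0.71 (SE 0.06, 95% interval 0.57 to 0.85, limma adjusted p = 0.000634). With a pseudocount of 10 ppm the log2 difference was 0.42, since Nedd4 is a low gene.

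Nedd4l, the closest relative of Nedd4, averaged 4.15 ± 0.37 and 4.21 ± 0.43 ppm in the 2 genotypes, wild type first here and below, and lay under the minimum for the test. Itch, a ligase whose loss causes inflammatory disease in mice, averaged 27.4 ± 1.01 and 29.6 ± 1.68 ppm (log2 difference 0.10, 95% interval -0.03 to 0.23, limma adjusted p = 0.209), and without library E it was called higher (0.15, limma adjusted p = 0.0407).

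The adaptor genes gave no call over all cells. Ndfip1, whose product recruits Itch and NEDD4 to membranes, stood at 164, 153 and 161 ppm in A, B and C and at 167, 170 and 201 ppm in D, E and F. The groups did not overlap, but D lay close to A and F stood above the other 5 libraries. The log2 difference was 0.16 (SE 0.07, 95% interval -0.00065 to 0.33, limma adjusted p = 0.129). Ndfip2, the second adaptor, averaged 33.3 ± 1.23 and 32.9 ± 2.0 ppm (log2 difference -0.02, 95% interval -0.15 to 0.12, limma adjusted p = 0.866).

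The other ligases differed by less than the test could call. Cbl, the paralog of Cblb, averaged 46.2 ± 1.48 and 47.8 ± 2.09 ppm (log2 difference 0.05, 95% interval -0.07 to 0.16, limma adjusted p = 0.503). Traf6 averaged 29.8 ± 0.68 and 30.4 ± 0.20 ppm (log2 difference 0.03, 95% interval -0.07 to 0.13, limma adjusted p = 0.645). Peli1 averaged 59.5 ± 2.86 and 58.6 ± 2.24 ppm (log2 difference -0.02, 95% interval -0.14 to 0.10, limma adjusted p = 0.790). Rnf128 was barely counted, at 0.28 ± 0.02 and 0.26 ± 0.09 ppm (SD, n = 3 each), with libraries between 0.16 and 0.32 ppm, and was not tested.

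**Figure D1:**
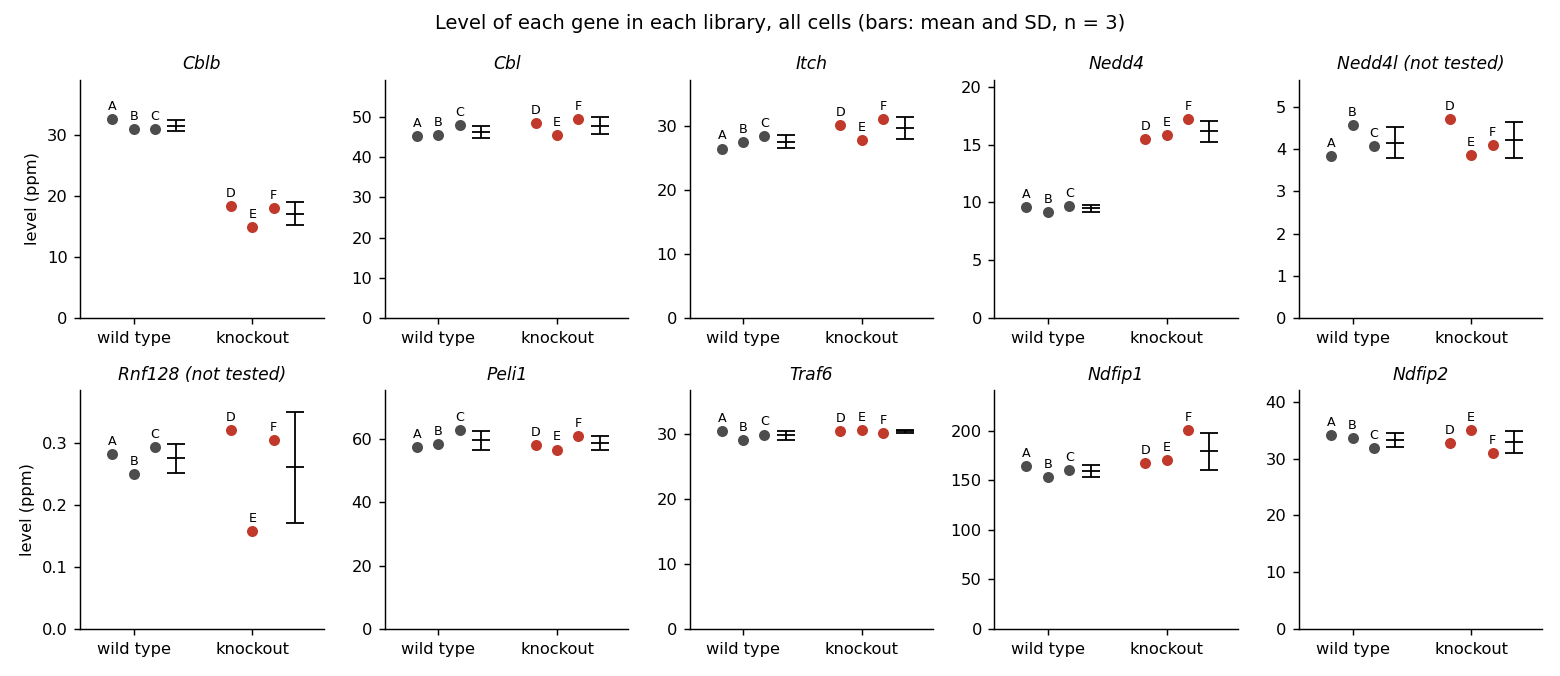
Level of each of the 10 members in each library (ppm of corrected counts), wild-type and knockout libraries side by side with the mean and SD of 3 libraries beside the points. In the knockout Cblb lies between 15.0 and 18.4 ppm, below all wild-type libraries, and Nedd4 between 15.5 and 17.2 ppm, above all of them, while the points of Cbl, Itch, Peli1, Traf6 and Ndfip2 overlap.

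Levels of Cblb, Nedd4, Traf6, Ndfip1 and Ndfip2 had their lowest or highest value in the same deposited cluster in at least 5 of 6 libraries. The clusters were made from the expression of the same cells, so levels across clusters are a description, and the clusters are named here by number only. Each of clusters 0 to 5 held at least 61 cells in every library.

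Cblb was lowest in cluster 2 in 6 of 6 libraries. Wild-type means in falling order were 37.2 ± 1.18 ppm in cluster 0, 35.0 in cluster 4, 32.2 in cluster 3, 30.1 in cluster 5, 28.6 in cluster 1 and 21.0 ± 1.11 ppm in cluster 2 (SD, n = 3). Between neighbours in that order only clusters 1 and 2 had library values that did not overlap. In knockout libraries the order was 0, 3, 4, 5, 1 and 2, from 19.7 ± 2.28 down to 12 ± 2.16 ppm, and all neighbours overlapped.

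Nedd4 and Traf6 were highest in that same cluster 2, each in 6 of 6 libraries. Nedd4 averaged 19.8 ± 1.69 ppm there in wild type, 2.75-fold above cluster 4, where it was lowest at 7.19 ± 0.70 ppm. Its wild-type order was 2, 5, 1, 3, 0 and 4, and only clusters 2 and 5 among neighbours did not overlap. In knockout libraries the order was cluster 2 (22.1 ppm), 5 (21.0), 1 (16.7), 0 (14.5), 4 (11.9) and 3 (11.6), with clusters 5 and 1, 1 and 0, and 0 and 4 apart and the other neighbours overlapping. Traf6 averaged 40.4 ± 3.42 ppm in cluster 2 of wild-type libraries and 24.0 ± 0.29 ppm in cluster 0. Peli1 had its lowest value in cluster 2 in 4 of 6 libraries, among them all 3 of the wild type, with lows in cluster 1 in D and cluster 5 in E. Its wild-type means ran from 65.9 ± 3.13 ppm in cluster 4 to 47.4 ± 3.45 ppm in cluster 2, while the knockout means of cluster 2 (55.1 ± 2.35 ppm) and cluster 1 (55.4 ppm) were level and all neighbouring clusters overlapped.

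Ndfip1 was highest in cluster 4 in 6 of 6 libraries, at 196 ± 2.42 and 200.5 ± 23.3 ppm, against 141 ± 7.02 and 168 ± 12.2 ppm in cluster 2. Ndfip2 was highest in cluster 3 in 5 of 6 libraries (39.3 ± 0.26 and 42.3 ± 2.35 ppm). Highest over lowest cluster means in the wild type were 1.19-fold for Cbl and 1.09-fold for Itch, against 1.39-fold for Peli1, and in the knockout 1.13-fold, 1.08-fold and 1.14-fold.

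**Figure D2:**
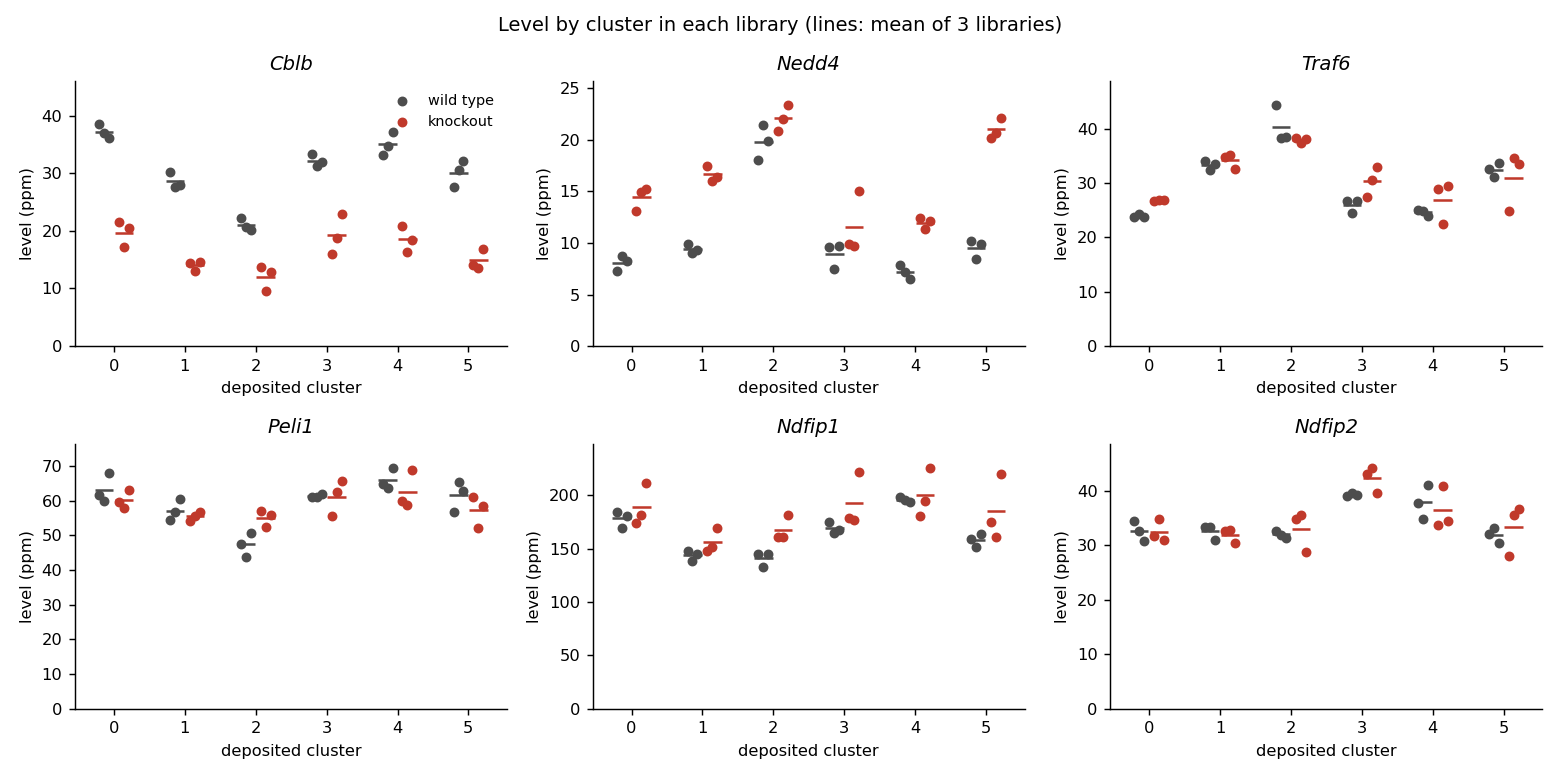
Level of 6 members (ppm) in each deposited cluster, 1 point per library, with a line at the mean of the 3 libraries of a genotype. In cluster 2 Cblb is lowest and Nedd4 and Traf6 highest in all 6 libraries, and the Nedd4 points of the 2 genotypes overlap in clusters 2 and 3 and lie apart in clusters 0, 1, 4 and 5.

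Across the 18 wild-type values, 1 for each library and cluster, the log2 levels of Nedd4 and Cblb ran in opposite directions (Pearson r = -0.92), as did those of Traf6 and Cblb (r = -0.89). Peli1 and Ndfip1 ran with Cblb (r = 0.87 and 0.81). In the 18 knockout values the same correlations were -0.61, -0.52, 0.76 and 0.63. These points share libraries, depth and clusters made from these genes, and the values are descriptions.

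**Figure D3:**
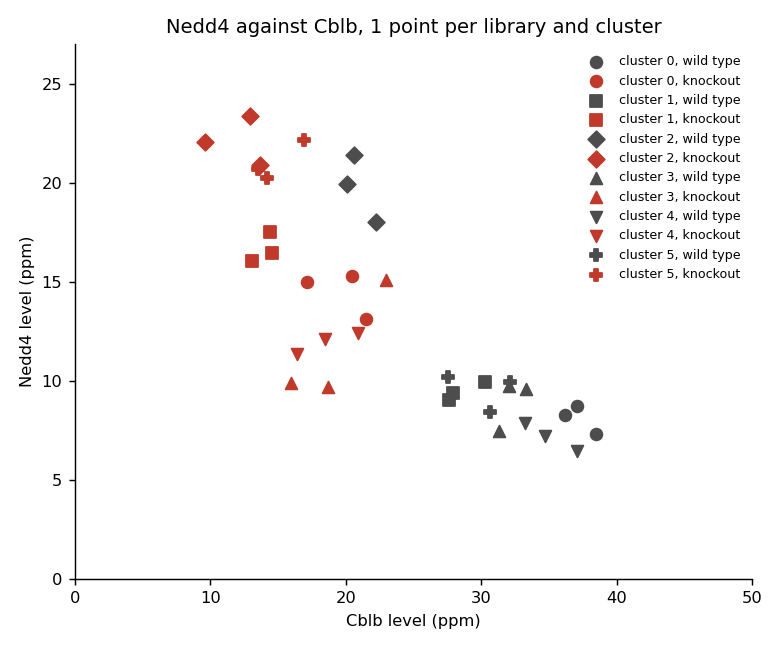
Nedd4 level against Cblb level (both ppm), 1 point for each of 6 clusters in each of 6 libraries, with shapes for clusters and colours for genotypes. Among wild-type points the 3 of cluster 2 stand apart at low Cblb and high Nedd4, and the knockout points lie at lower Cblb than the wild-type points of the same cluster.

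Of 5082 other genes at a wild-type mean of at least 20 ppm, those with the wild-type cluster pattern most like that of Cblb were Cd53, a tetraspanin gene (r = 0.97), Ifi27l2a (0.96) and Rgs10 (0.95), over 18 values. For Nedd4, with 5083 genes compared, they were Cct3, a chaperonin subunit gene, Npm3 and Slco3a1 (0.94 each). For Traf6 they were Chd7 (0.95), Batf3, a transcription factor gene, and Il2ra, the gene of the IL-2 receptor alpha chain (0.94 each). Ndfip1 was most like Hvcn1 (0.97), Cited2 (0.96) and Ctsb (0.96), and Peli1 most like Tpt1 (0.95), Ptk2b (0.93) and Hook3 (0.93). Lower values were found for Cbl (Zmiz2 0.86, Hist1h2bj 0.85, Gpi1 0.84), Ndfip2 (Nedd9 0.86, Pdcd1 0.86, Rock1 0.85) and Itch (Pdk1 0.86, Supt20 0.79, Upf2 0.79).

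The genotypes were next compared inside each cluster. Cblb was lower in knockout libraries in all 6 clusters, at 49.0% to 59.6% of its wild-type level. Log2 differences were -0.89 in cluster 0, -0.98 in cluster 1, -0.77 in cluster 2, -0.73 in cluster 3, -0.88 in cluster 4 and -0.97 in cluster 5, with limma adjusted p between 8.81e-05 and 0.00918. In cluster 0 the libraries read 38.5, 37.0 and 36.2 ppm against 21.5, 17.1 and 20.4 ppm, and in cluster 2 they read 22.2, 20.6 and 20.1 against 13.6, 9.59 and 12.9 ppm. The call in cluster 3, which held 61 cells in D, was lost without library A (limma adjusted p = 0.0618) or C (0.0518). The genotype-by-cluster term, a limma F test with the library as a block over 36 library-by-cluster sums, gave no call for Cblb (adjusted p = 0.537).

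Nedd4 was higher in knockout libraries in clusters 0, 1, 4 and 5 and not called in clusters 2 and 3. The largest difference was in cluster 5, where the libraries read 10.2, 8.42 and 9.94 ppm in wild type against 20.2, 20.7 and 22.1 ppm in knockout. These groups lay far apart, 2.21-fold, with a log2 difference of 1.07 (SE 0.12). The log2 differences were 0.77 in cluster 0, 0.76 in cluster 1 and 0.66 in cluster 4, and limma adjusted p in the 4 called clusters lay between 0.000346 and 0.00742. In cluster 2, where Nedd4 was highest in every library, values of 18, 21.4 and 19.9 ppm stood against 20.9, 22 and 23.4 ppm. These overlap, and the log2 difference was 0.15 (SE 0.09, limma adjusted p = 0.266). In cluster 3 it was 0.32 (SE 0.19, limma adjusted p = 0.344), with knockout library F at 15.1 ppm above D and E at 9.89 and 9.70 ppm.

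The difference between clusters was itself tested and called for Nedd4 (limma F = 9.35, adjusted p = 0.00083). Relative to cluster 0, the log2 difference was smaller by 0.61 (coefficient -0.61, SE 0.15) in cluster 2, by 0.44 in cluster 3 (coefficient -0.44), and larger by 0.30 in cluster 5. Of 8488 genes tested this way 11.1% were called, and of the 8 members 3 were: Nedd4, Ndfip1 and Peli1. Depth moved with the genotypes in cluster 2, with median raw totals of 42596, 43894.5 and 43755 UMIs per cell in wild-type and 40920, 37669 and 40764.5 in knockout libraries. Among cells within 20% of the median depth, where 33 of the 36 sums held at least 50 cells, the Nedd4 differences were 0.77, 0.79 and 0.18 in clusters 0, 1 and 2, and the F test did not pass (F = 3.48, limma adjusted p = 0.0931).

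Ndfip1 and Peli1 had their largest genotype difference in cluster 2, though for Ndfip1 cluster 5 was close to it. Ndfip1 in cluster 2 read 145.5, 133.2 and 145.2 ppm against 160.9, 161.0 and 182.1 ppm, a gap with no overlap, and was called higher (log2 difference 0.25, SE 0.07, limma adjusted p = 0.0226). Its differences in the other clusters were 0.03 to 0.22, with 0.22 in cluster 5, none called. Its interaction gave F = 4.82 (limma adjusted p = 0.0267), with coefficients relative to cluster 0 of 0.17 in cluster 2, 0.14 in cluster 5 and 0.10 in cluster 3 (SE 0.055 each). The cluster 2 call was lost without A (limma adjusted p = 0.0507), B (0.0954), C (0.0563) or F (0.0788), and the interaction call without A (0.153), B (0.227), C (0.0983) or D (0.211) and among cells near the median depth (0.224).

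Peli1 in cluster 2 read 47.6, 43.8 and 50.7 ppm against 57.1, 52.5 and 55.8 ppm. The groups did not overlap, and the difference of 0.22 was not called (SE 0.07, limma adjusted p = 0.0593), while in the other clusters it lay between -0.11 and -0.01. Its interaction gave F = 4.27 (limma adjusted p = 0.0428), with a coefficient of 0.28 (SE 0.08) for cluster 2 relative to cluster 0, and this call was lost when any 1 library was left out (limma adjusted p 0.0527 to 0.258).

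Cbl and Itch were not called in any cluster, though each had a higher mean in knockout libraries in 6 of 6 clusters, with log2 differences of 0.04 to 0.20 and 0.06 to 0.15 and lowest limma adjusted p of 0.174 and 0.237. Traf6 in cluster 0 read 23.7, 24.3 and 23.8 ppm against 26.6, 26.9 and 26.9 ppm, apart but just outside the threshold (log2 difference 0.16, limma adjusted p = 0.0502), and its difference in cluster 2 was -0.09. Its interaction was not called over 6 clusters (limma adjusted p = 0.262) and was called over clusters 0 to 2 alone (0.0336), a choice made after the data were seen. Ndfip2 was not called in any cluster, with log2 differences of -0.06 to 0.10.

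Of 8 tested members 2 were called in each of clusters 0, 1, 2, 4 and 5 and 1 in cluster 3. Cblb, the targeted gene, is among the calls in every cluster. The shares of all genes called were 21.8% in cluster 0, 18.8% in cluster 1, 20.1% in cluster 2, 8.39% in cluster 3, 12.8% in cluster 4 and 9.58% in cluster 5.

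**Figure D4:**
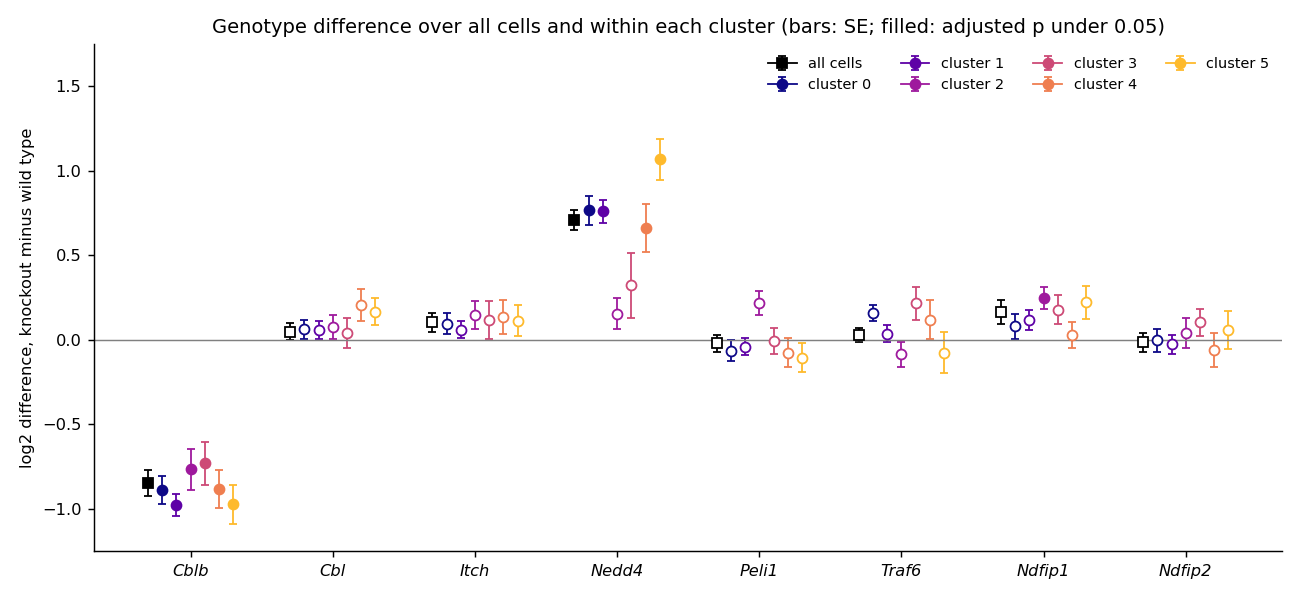
Log2 difference of 8 members, knockout minus wild type, over all cells and within each cluster, with SE bars and filled symbols for limma adjusted p under 0.05. Cblb lies between -0.98 and -0.73 in all clusters, Nedd4 ranges from 0.15 in cluster 2 to 1.07 in cluster 5, and the other members lie between -0.11 and 0.25.

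The wider ubiquitin machinery and its reported targets were read in 9 lists over all cells, which also hold the 10 members. Of their 149 genes 131 were tested, and of these 27 were higher and 22 lower (37.4% called, against 24.4% of all genes). The lists were chosen with earlier results of these data known and include Cblb itself, so these shares are a description and no test of the lists. The median log2 difference of all genes was -0.01. Among 13 tested genes of the CBL family and its partners 2 were higher and 3 lower (list median 0.004). The adaptor gene Crk rose from 21.8 ± 0.20 to 28 ± 2.72 ppm (log2 difference 0.34) and Ubash3b by 0.20, while its paralog Ubash3a, also a suppressor of T cell receptor signalling, fell from 30.7 ± 1.13 to 23.6 ± 1.36 ppm (-0.36). Sh3kbp1, whose product CIN85 binds CBL proteins, fell by 0.15 on the log2 scale. Of 10 tested NEDD4 family genes and adaptors 2 were higher and none was lower (median 0.13), namely Nedd4 and the arrestin-like adaptor gene Arrdc1 (0.24).

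Among 25 other tested RING and RBR ligases 3 were higher and 0 lower (median 0.09). Rnf19b rose from 59.5 ± 3.37 to 100.7 ± 23.7 ppm (log2 difference 0.72), with 105.8, 74.9 and 121.6 ppm in D, E and F. Dtx3 and Rnf19a, an RBR ligase gene like Rnf19b, rose by 0.39 and 0.23. In the list of Pellino and TRAF genes, 8 tested, Traf1 was higher and Traf5 lower (median 0.004). Traf1, a target of NF-kB that encodes a TNF receptor adaptor, read 49.0, 49.1 and 49.2 ppm against 89.2, 88.6 and 99.3 ppm (0.90), and Traf5 fell from 13.3 ± 0.54 to 8.95 ± 0.58 ppm (-0.53).

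Conjugating enzymes hand ubiquitin to these ligases. Those called moved only downward: 6 of 10 tested were lower and 0 higher (median -0.16), against 13.4% of all genes called lower. The genes of this list under the minimum level, which were not tested, had higher means in the knockout. Ube2l3, which serves HECT and RBR ligases, fell from 295 ± 7.38 to 243 ± 13.2 ppm (log2 difference -0.28), Ube2g2 by 0.25 and Ube2n, the conjugating enzyme gene that works with TRAF6, from 198 ± 8.87 to 174 ± 4.67 ppm (-0.19). Of 17 tested deubiquitinases 5 were higher and 1 lower (median -0.03): Tnfaip3, the gene of the NF-kB inhibitor A20, rose from 16.9 ± 1.12 to 23.7 ± 1.67 ppm (0.46), Usp22 and Otulin by 0.27 and 0.24, and Uchl3 fell by 0.33.

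Genes of reported CBL-B or CBL substrates moved both ways, 3 higher and 2 lower of 16 tested (median -0.001). Stat6, which carries the IL-4 signal, read 49.3, 48.3 and 49.1 ppm against 62.2, 54.3 and 58.5 ppm (log2 difference 0.25), Stat5a rose from 145 ± 4.96 to 182 ± 19.4 ppm (0.33) and Pik3r2 by 0.24, while Cd3e (-0.30) and Plcg1 (-0.18) fell. Among genes of reported substrates of Itch, NEDD4, Pellino 1, RNF128 or TRAF6 7 were higher and 5 lower of 18 tested (median 0.14). Rora rose from 15.7 ± 0.54 to 28.8 ± 4.21 ppm (0.82), Junb, which encodes a transcription factor that Itch marks for degradation, from 281 ± 14 to 458 ± 84 ppm (0.69) and Il2ra by 0.54, while Txk fell from 7.80 ± 0.28 to 5.09 ± 0.12 ppm (-0.53) and Map3k7, the kinase gene TAK1, fell by 0.39 on the log2 scale. In the anergy list 4 of 18 were higher and 6 lower (median -0.01). Gadd45b (0.89), Ctla4 (0.64) and Lag3 (0.53) rose, and Nt5e, the gene of CD73 (-1.23), Nrp1 (-0.45) and Egr3 (-0.38) fell. All named list genes passed limma at adjusted p between 0.000103 (Traf1) and 0.0448 (Usp22).

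**Figure D5:**
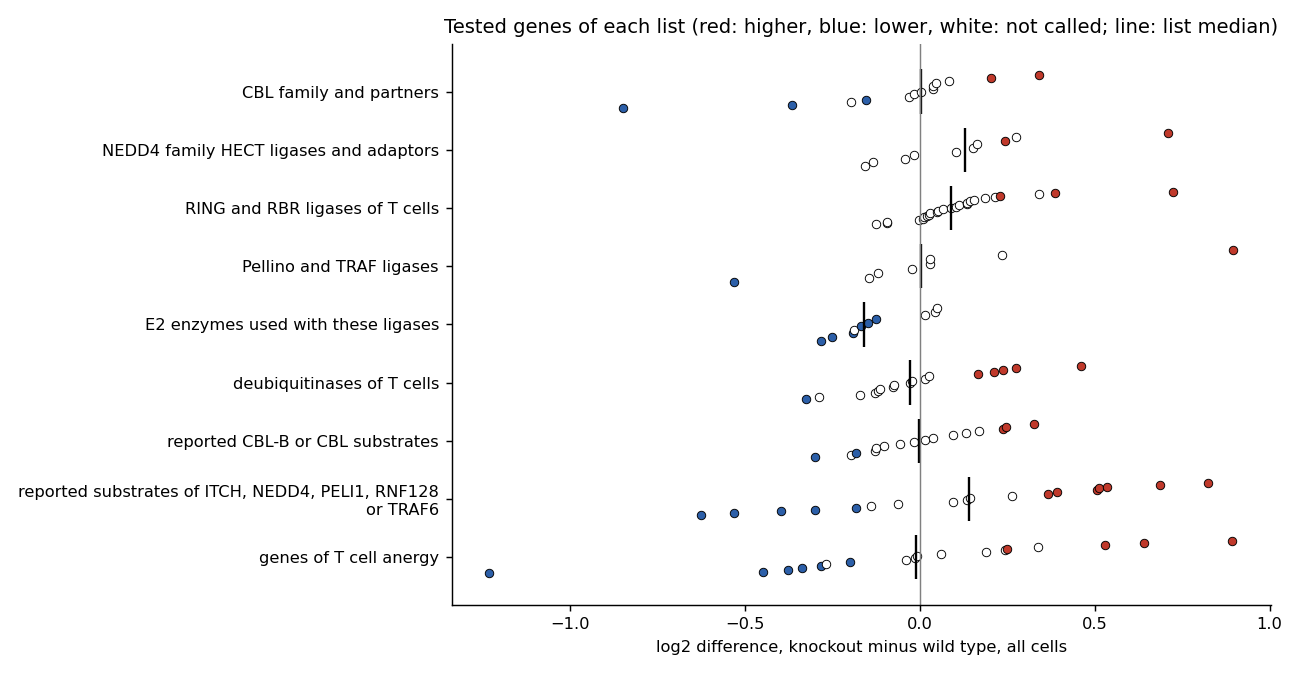
Log2 difference, knockout minus wild type over all cells, of each tested gene in 9 lists, with colour for the limma call and a line at each list's median. All 6 called conjugating enzymes (the list named E2 enzymes) lie below 0, Nedd4 and Rnf19b stand out above 0.70 in their lists, and Cblb is the lowest of the CBL family.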

How the data were processed

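Naive CD4 T cells cultured to Th9 cells were profiled in 6 single-cell libraries. Per the submitters' processing notes, the build was mm10 and the tools Cell Ranger 3.0.2 and Seurat 3.0.0, with roles and settings not given in the sources used here. Per the file headers, the deposited values are sctransform scores, counts that the authors had corrected for depth, 1 for each cell and gene, so a count model was not used. The authors' deposited table also gives each cell's raw UMI count, the percent of mitochondrial UMIs, per the file headers, and the cluster numbers. All deposited cells were kept (lowest raw total 15006 UMIs), and no doublet caller was run, since raw counts per gene were not used here.

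Corrected counts were summed per library, or per library and cluster where every library had at least 50 cells, and scaled to 1000000. limma 3.58.1 (R 4.3.3) was run on log2(ppm + 1) of genes averaging 5 ppm or more, which understates differences of low genes, with a trended prior variance, two-sided, adjusted by Benjamini-Hochberg over all genes tested at 0.05. Libraries carry no replicate number in the table. Precision rests on 3 libraries per genotype. The named genes were the members, up to 3 called genes with the largest differences in each direction per list, and the 3 genes most like each member; a few list members are not reported here by name. Members and lists were chosen with earlier results of these data known. Alternatives covered scaling, pseudocounts, filters, depth, cluster weights and left-out libraries.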

Additional observations from a re-analysis of the deposited data

Results flagged for a closer look

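The genotype difference of 3 members varied among clusters 0 to 5 by the test of that difference itself, the genotype-by-cluster term of limma (F test over 36 library-by-cluster sums). Nedd4 gave F = 9.35 (adjusted p = 0.00083), with the log2 difference largest in cluster 5 (1.07) and smallest in cluster 2 (0.15). Ndfip1 gave F = 4.82 (limma adjusted p = 0.0267) and Peli1 F = 4.27 (limma adjusted p = 0.0428), both with their largest difference in cluster 2 (0.25 and 0.22). The Ndfip1 difference in cluster 5 was close to that in cluster 2, at 0.22. Of all genes 11.1% were called by the same test. Clusters 3 to 5 held as few as 61 cells in a library. Among cells near the median depth the Nedd4 and Ndfip1 calls were lost (F = 3.48 and 2.35, limma adjusted p = 0.0931 and 0.224) and Peli1 stayed called (0.0447). The Peli1 call was lost when any 1 library was left out (limma adjusted p 0.0527 to 0.258), the Ndfip1 call without A, B, C or D (0.0983 to 0.227), and the Nedd4 call was kept without any 1 library (0.000838 to 0.0205). Over clusters 0 to 2 alone, a choice made after the data were seen, all 3 were called (limma adjusted p = 0.00046, 0.00411 and 0.00193 for Nedd4, Ndfip1 and Peli1).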

How the results depend on the processing

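The check took 26 selected test results of single members. They were all tested members over all cells, Cblb and Nedd4 in each cluster, and the 3 called interactions. Ndfip1 and Peli1 in cluster 2 and Traf6 in cluster 0 made up the rest. Of these 26, 16 kept their side of the threshold, and the differences their direction, under every alternative run, as did 266 of 296 recomputed values. The other differences within clusters and the interactions that were not called are outside this count. Cblb over all cells stayed between -0.90 and -0.62 and Nedd4 between 0.42 and 0.76 on the log2 scale, both called under every alternative that gave them a value (a filter at 20 ppm drops Nedd4). No paired analysis was possible because the libraries carry no replicate numbers in the table. The number of genes called higher (929) was 1433 with no filter on low values and 547 with a filter at 20 ppm, and 396 to 1750 when 1 library was left out. The number called lower (1139) was 381 to 1396. Members called in the interaction (3) numbered 1 to 3 when 1 library was left out, 1 without A, B, C or D, and 4 over clusters 0 to 2 alone. Small differences changed sign: Peli1 over all cells (-0.02) was 0.0012 among cells near the median depth, and with 1 library left out it ran from -0.050 to 0.018 (0.018 without C, 0.0033 without E). Ndfip2 over all cells (-0.02) was 0.0019 near the median depth, 0.021 with clusters weighted equally, and -0.059 to 0.025 with 1 library left out (0.0061 without A, 0.025 without F). The untested differences changed sign as well: Nedd4l (0.02) was -0.03 without A and -0.05 without D, and Rnf128 (-0.02) was 0.04 without E. Traf6 in cluster 0 was called with a pseudocount of 0.1 ppm (adjusted p = 0.0499, limma) and without E (0.0431), and Peli1 in cluster 2 with median-of-ratios scaling (0.0409) and without E (0.0415). The cause was not tested. The depth window could not be run in clusters 3 to 5, where a library had under 50 such cells. Nedd4l and Rnf128 are too low for a test here.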

Other observations

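Il9, the cytokine gene that defines these cells, had its highest level in the same cluster as Nedd4. In cluster 2 it averaged 2904 ± 212 ppm in the wild type and 4006 ± 432 ppm in the knockout (SD, n = 3 each), with libraries of 3129, 2706 and 2877 ppm against 4389, 3537 and 4090 ppm. These Il9 groups did not overlap, while the Nedd4 groups of cluster 2 did. In cluster 5, where the Nedd4 difference was largest, Il9 averaged 265 ± 85.5 ppm without and 1470 ± 290 ppm with the knockout, 5.54-fold apart, and the groups did not overlap. In cluster 3, where the Nedd4 groups overlapped, Il9 averaged 51.3 ± 8.0 and 79.7 ± 25.4 ppm and its groups overlapped as well. Means were 18.1 and 60.5 ppm in cluster 0, 101 and 223 ppm in cluster 1 and 15.2 and 41.7 ppm in cluster 4. Across the 18 library-by-cluster values the log2 levels of Nedd4 and Il9 had a Pearson r of 0.93 in wild type and 0.89 in knockout, points that share libraries, depth and clusters made from these genes. Il9 was set beside Nedd4 after its values were seen, and what links them was not tested.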
